A study of Mus musculus with 8 samples.

Results

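Cd68 and 36 other genes of the lysosome were followed in blood stem and progenitor cells of Asxl2 knockout (KO) and wild-type (WT) mice. The set holds 37 genes of the 47311 that the deposited transcripts matched, and it was built around Cd68, which was selected on its higher level in KO than in WT libraries. Cd68's values in KO and WT libraries are therefore given as a description with no test. The other 36 genes were listed for what they encode, so that Cd68 could be set beside the rest of the organelle. They are 8 further membrane proteins, 3 lipid transfer and activator proteins, 8 cathepsins, 9 glycosidases, 7 other hydrolases (lipases, a peptidase, a thioesterase and sulfatases) and the transcription factor Tfeb. All 37 passed the filter on low counts.

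The cells were LSK cells (Lin-Sca1+Kit+ bone marrow cells), the marrow fraction that holds blood stem cells with the multipotent progenitors nearest to them. There were 4 groups with 2 mice each: old KO and young KO, set against old WT and young WT. Old mice were over 1 year and young mice 8 to 12 weeks of age, and no treatment is named. The labels call the KO allele Asxl2 KO with no further detail, and they put the 8 mice into 4 litters, each a KO with a WT littermate of the same age and batch (litters 1 and 2 old, 3 and 4 young, with litters 1 and 3 in batch 1 and litters 2 and 4 in batch 2).

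Lysosomes are acidic compartments in which hydrolases take apart proteins, glycans, lipids and nucleic acids delivered by endocytosis, phagocytosis and autophagy. Their membrane is lined by heavily glycosylated proteins of the LAMP family, of which Lamp1 and Lamp2 are the most abundant, and Cd68 is the LAMP family member best known from macrophages, where it serves as a marker. The transcription factor Tfeb drives many lysosome genes together through a promoter element (CLEAR) with the core CACGTG. Quiescent blood stem cells are known to hold large lysosomes, and Asxl2 is a partner of the histone H2A deubiquitinase Bap1.

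Library totals ran from 45737972 to 80388500 estimated counts, and 26237 to 36175 genes were detected per library (at least 1 estimated count), most of them in the old KO libraries, at 35776 and 36175. Asxl2 stood at 4.635 to 5.628 TPM (kallisto's abundance unit, scaled for transcript length and library size) in KO libraries, against 23.02 to 30.83 TPM in WT libraries. The defining LSK markers were present throughout, with Ly6a, which encodes Sca1, at 149.6 to 660.6 TPM and Kit at 63.39 to 547.2 TPM. The 10 LSK markers summed to 1585 to 2102 TPM in KO libraries and 2015 to 3127 TPM in WT libraries, which overlap, and the KO sum was below that of the WT littermate in all 4 litters. Litter 1 stood apart in holding Xist RNA (3.328 TPM in its KO and 3.611 TPM in its WT mouse, and at most 0.0612 TPM in the other 6), and fits without it are given with the results.

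Cd68 was higher in every KO library than in any WT library, at both ages and in both batches. Cd68 (ENSMUSG00000018774, mm10 chromosome 11, 69664213 to 69666153, minus strand) had 100.4 and 83.9 TPM in old KO libraries and 78.2 and 89 TPM in young KO libraries, against 32.5 and 32.0 TPM in old WT and 31.0 and 27.3 TPM in young WT. The lowest KO library thus lay well above the highest WT library. Means were 87.9 ± 9.46 TPM in KO and 30.7 ± 2.37 TPM in WT libraries (SD, n = 4 each), a log2 change of 1.67 (SE 0.16) in the edgeR fit over both ages. Within litters, the log2 ratio of KO to WT littermate TPM was 1.63 and 1.39 in the old litters 1 and 2 and 1.34 and 1.71 in the young litters 3 and 4. The log2 change was 1.68 in batch 1 and 1.57 in batch 2, and 1.51 without litter 1. Over 20 alternative fits it stayed between 1.30 and 1.74. Bulk libraries cannot tell more cells that express Cd68 from more Cd68 RNA per cell, nor fewer cells of a type from less RNA per cell, here and in all that follows.

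The promoter of Cd68 is shown because the set was built around this gene. RefSeq's start site in the GRCm38.p6 (mm10) table gives the stretch chr11:69666121-69666420 on the minus strand, 250 bases before to 50 bases after the start. Capitals mark GGAAGT, a core bound by ETS factors, the family of the myeloid regulator PU.1. The marked copy lies within the 50 bases after the start, and binding to it was not tested.
Cd68: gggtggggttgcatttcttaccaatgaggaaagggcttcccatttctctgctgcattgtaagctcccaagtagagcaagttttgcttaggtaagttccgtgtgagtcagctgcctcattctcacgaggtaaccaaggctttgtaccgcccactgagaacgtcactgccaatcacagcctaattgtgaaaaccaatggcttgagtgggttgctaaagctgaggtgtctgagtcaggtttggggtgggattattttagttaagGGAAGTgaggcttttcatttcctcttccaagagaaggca
Searched on both strands, GGAAGT lies in 23.8% of 32851 RefSeq promoters of this length and in those of 12 of the 32 members with a promoter in the table. The letters CACGTG, searched the same way, are not in this window.

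Most Cd68 RNA was assigned to one coding transcript, and the 3 well expressed genes around Cd68 overlapped between KO and WT libraries. Cd68-201, of 1230 bases, had 80.8, 66.2, 66.7 and 68.8 TPM in the KO libraries of litters 1 to 4, against 25.6, 20.5, 26.6 and 24.1 TPM in their WT littermates, with no overlap. Cd68-203, a non-coding transcript of 612 bases, had 11.0 to 18.5 TPM in KO and 1.54 to 10.4 TPM in WT libraries. No annotated gene overlaps Cd68. Its neighbour Mpdu1, a dolichol pathway gene that ends 1571 bases away, stood at 77.5 to 97.8 TPM in KO and 83.0 to 95.5 TPM in WT libraries. On the other side Eif4a1, a translation initiation helicase 783 bases away, had 696 to 1107 TPM in KO and 649 to 1078 TPM in WT libraries. Beyond these, Senp3, a SUMO protease gene, had 22.3 to 32.99 TPM in KO and 28.2 to 36.3 TPM in WT libraries. Sox15, a transcription factor gene on the far side of Mpdu1, was low throughout at 0.645 to 1.10 TPM in KO and 0.272 to 0.528 TPM in WT libraries, and these did not overlap.

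Macrophage and monocyte markers summed to overlapping levels in KO and WT libraries. The 20 markers of that list summed to 574.5 to 955.8 TPM in KO libraries and 566.8 to 917.2 TPM in WT libraries. Most of that sum was lysozyme, Lyz2, at 447.6 to 820.2 TPM in KO and 504.2 to 786.9 TPM in WT libraries. Among the markers of tissue macrophages in the list, Adgre1 (F4/80) reached at most 0.904 TPM, C1qa 1.12 TPM and Mrc1 0.467 TPM in any library. Marco was listed at 0 in the young KO library of litter 3. Most other markers of the 20 are given only within the sum, so these few do not describe the whole list. The growth factor receptor Csf1r had 3.79 to 8.91 TPM in KO and 3.56 to 4.71 TPM in WT libraries. The 8 dendritic cell markers summed to 330 to 1628 TPM in KO and 473 to 1877 TPM in WT libraries, and the 10 mature neutrophil markers to 69.7 to 1578 TPM in KO and 11.7 to 1093 TPM in WT libraries. The 10 erythroid markers summed to 1389 to 2458 TPM in KO and 1769 to 3184 TPM in WT libraries, the 6 B cell markers to 451.4 to 548.2 TPM in KO and 460.5 to 1435 TPM in WT, and the 6 T and NK cell markers to 8.614 to 15.09 TPM in KO and 11.67 to 18.9 TPM in WT. The 7 myeloid progenitor markers summed to 1907 to 3749 TPM in KO and 1674 to 3868 TPM in WT libraries, and the 7 mast cell and eosinophil markers to 550 to 901.8 TPM in KO and 48.28 to 1954 TPM in WT. All of these sums overlapped between the genotypes, while the erythroid, B cell and T and NK cell sums, like the LSK sum, lay below the WT littermate in all 4 litters.

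**Figure D1:**
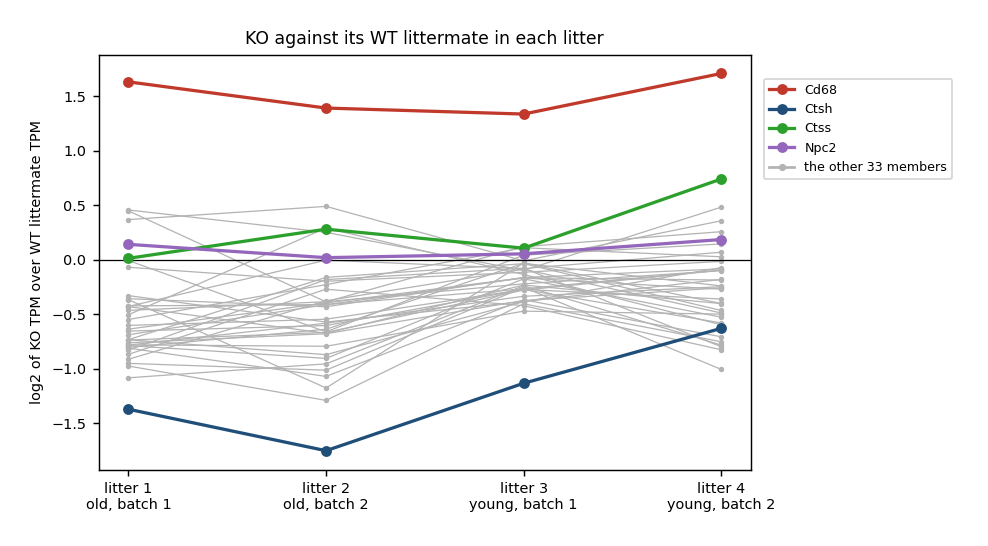
Log2 ratio of KO TPM to WT littermate TPM (y axis) in each of the 4 litters (x axis), with lines joining the points of each lysosome gene. Cd68 lies between 1.34 and 1.71, above every other member, most members lie below 0, and Ctsh is the lowest in the first 3 litters.

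None of the other 36 members was called higher with Cd68 in KO than in WT over both ages, and 4 were called lower: the protease Ctsh, the glycosidases Gaa and Naglu and the sulfatase Arsa (edgeR quasi-likelihood F test, p adjusted over 25543 genes, threshold 0.05). The 4 are 11.1% of the 36, where 3.19% of all genes were called higher and 6.78% lower. At an unadjusted p under 0.05 there were 1 higher (Ctsz) and 16 lower of the 36, where 12.1% of all genes were higher and 17% lower. DESeq2 called 1 of the 36 higher (Ctsz) and 13 lower, where it called 7.47% of all genes higher and 13.6% lower. Of the 36, 8 estimates lay above 0 and 28 below, with a median log2 change of -0.29, while the median of all genes tested was 0.10 in this fit and -0.007 on the log2(TPM + 1) scale. The median of the 36 stayed below 0 in all 20 alternative fits, from -0.43 to -0.13. The value nearest to 0 came with the number of detected genes as a covariate, and this fit called none of the 36. The count of 4 rested on single libraries: it was 0 without either old KO library, without the old WT library of litter 2 or without litter 1, and 1 (Ctsh) without the young KO library of litter 4, the old WT library of litter 1 or the young WT library of litter 4. It was 10 without the young KO library of litter 3 and 7 without the young WT library of litter 3. The LSK, erythroid, B cell and T and NK cell marker sums were also below the WT littermate in all 4 litters, as given above, and their part in the lower levels was not tested. Old KO libraries had the most detected genes, whose part was not tested beyond the covariate.

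The individual libraries were also compared without a model. In TPM, KO lay above WT without overlap for no member other than Cd68, where 1.8% of all genes did so. Cd68 itself did so, as the gene selected on this difference, and is given as a description. KO lay below WT without overlap for 8 members, Ctsh, Ctsl, Grn, Neu1, Naglu, Lipa, Arsa and Galns, where 8.08% of all genes did so. Compared within litters, the members above the WT littermate in all 4 litters, Cd68 left out, were Ctss and Npc2 (12.2% of all genes). Below it in all 4 were 27, or 73% of the set (24.2% of all genes). On the TMM scale of CPM the 27 became 17, with 18.3% of all genes. Of the 8 without overlap Ctsh alone was left on that scale, where 3.25% of all genes lay below without overlap. Without the young KO library of litter 4, or without the old WT library of litter 1, the 8 became 14. Leaving out a library cannot lower such a count for any set of genes, and the share of all genes was not computed there.

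**Figure D2:**
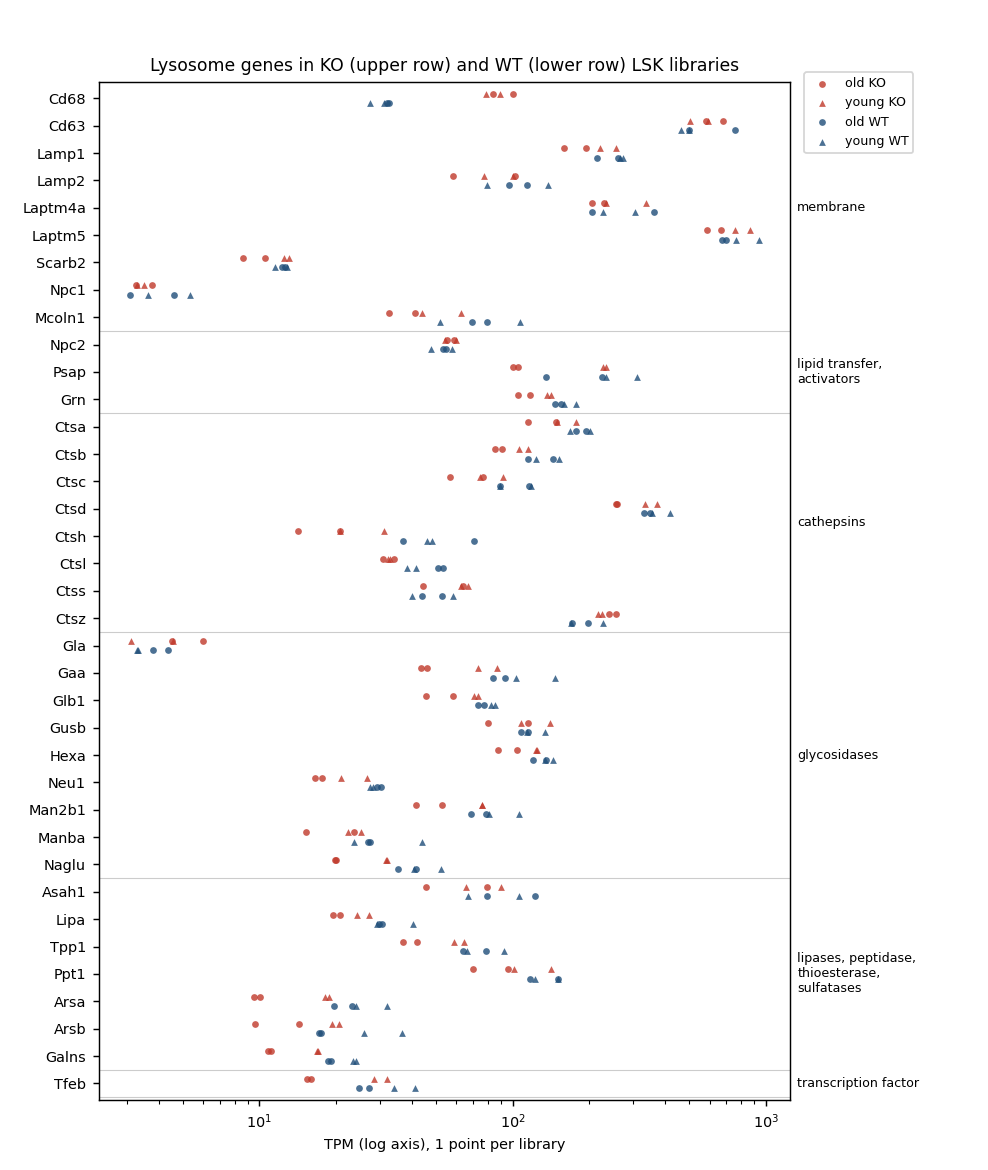
TPM of the 37 lysosome genes (x axis, log scale), 1 point per library, with KO in the upper and WT in the lower row of each gene, circles for old and triangles for young mice. Cd68 is the only gene whose KO points (78.2 to 100.4) all lie right of its WT points (27.3 to 32.5).

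Of the 8 membrane proteins other than Cd68, edgeR called none, and DESeq2 called Mcoln1 lower. Lamp1, the main LAMP protein, had 160.1 and 195.8 TPM in old KO and 221.5 and 256.1 TPM in young KO libraries, against 214.7 and 260.3 TPM in old WT and 266.4 and 273.3 TPM in young WT. KO and WT libraries of Lamp1 overlapped. As a share of the Lamp1 level, Cd68 was 62.7% and 42.9% in the old KO and 35.3% and 34.8% in the young KO libraries, against 15.1% and 12.3% in old WT and 11.6% and 9.97% in young WT. Lamp2, which also serves chaperone-mediated autophagy, had 58.4 to 102 TPM in KO and 79.3 to 138 TPM in WT libraries. Cd63, a tetraspanin of late endosomes, was among the most abundant members, with 503.9 to 678.2 TPM in KO and 463.5 to 757.4 TPM in WT libraries.

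The rest of the membrane group overlapped between genotypes. Laptm5, a lysosomal protein of blood cells that tempers receptor signalling, had the highest mean level of the set, with 586.2 to 868.8 TPM in KO and 671.9 to 940.7 TPM in WT libraries. Laptm4a, a related transmembrane protein, had 205.6 to 337.2 TPM in KO and 206.7 to 362.9 TPM in WT libraries. Scarb2, the receptor that carries glucocerebrosidase to the lysosome, had 8.604 to 13.1 TPM in KO and 11.5 to 12.8 TPM in WT libraries. Npc1, the cholesterol exporter, was the least abundant member at 3.24 to 3.78 TPM in KO and 3.09 to 5.30 TPM in WT libraries. Mcoln1, a calcium release channel of the lysosome, had 32.5 to 62.3 TPM in KO and 51.8 to 107 TPM in WT libraries and missed the threshold (log2 change -0.46, SE 0.14, edgeR adjusted p = 0.0629).

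Among lipid transfer and activator proteins edgeR and DESeq2 called none of the 3, and the log2(TPM + 1) fit called Grn lower. Npc2, the soluble partner of Npc1, was above the WT littermate in each litter by a small margin, at 58.8, 55.2, 59.7 and 54.1 TPM in the KO libraries of litters 1 to 4 and 53.3, 54.5, 57.5 and 47.6 TPM in WT. Its KO and WT ranges overlapped and its log2 change was 0.24 (SE 0.14, edgeR adjusted p = 0.282). Grn, whose product progranulin is cut into granulins in the lysosome, had 104.7 to 141.4 TPM in KO and 146.5 to 178.8 TPM in WT libraries. These did not overlap in TPM, yet the count fit did not call Grn (log2 change -0.20, SE 0.14, edgeR adjusted p = 0.355). Psap, the precursor of the saposins that help to break down sphingolipids, had 100.3 to 234.8 TPM in KO and 135.6 to 310.2 TPM in WT libraries.

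The 8 cathepsins, the proteases of the lysosome, had estimates on both sides of 0, and 1 was called. Ctsh, an aminopeptidase and the member with the largest fall, had 14.3 and 20.9 TPM in old KO and 20.9 and 31.1 TPM in young KO libraries, against 36.8 and 70.3 TPM in old WT and 45.7 and 48.1 TPM in young WT. The highest KO library lay below the lowest WT library. Means were 21.8 ± 6.96 TPM in KO and 50.2 ± 14.2 TPM in WT libraries (SD, n = 4 each), and Ctsh fell by 0.98 on the log2 scale (SE 0.21, edgeR adjusted p = 0.0234). The call held in 13 of 20 alternative fits, among them the litter block (edgeR adjusted p = 0.0422). Fits with no batch term, in batch 1 alone or with the covariate for detected genes did not make the call. It was lost without the old KO library of litter 1 (0.0688) or of litter 2 (0.0941), without the old WT library of litter 2 (0.0708) and without litter 1 (0.103), while the log2 change stayed between -1.28 and -0.74. Most Ctsh RNA was assigned to Ctsh-202, annotated as a target of nonsense-mediated decay, at 8.31 to 19.9 TPM in KO and 23.2 to 44.6 TPM in WT libraries. The coding Ctsh-201 had 1.796 to 5.27 TPM in KO and 5.69 to 9.60 TPM in WT libraries, so both forms separated the genotypes.

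Ctsz and Ctss, cysteine proteases like Ctsh, had estimates above 0. Ctsz, a carboxypeptidase, had 217.9 to 256 TPM in KO and 170.1 to 227.9 TPM in WT libraries, with an overlap, and a log2 change of 0.44 (SE 0.14, edgeR adjusted p = 0.0644). It was called higher by DESeq2, without the filter on low counts, and, together with Ctss, without the young WT library of litter 3. Ctss, a protease of antigen-presenting cells, had 44.2, 63.7, 62.5 and 66.6 TPM in the KO libraries of litters 1 to 4 and 43.8, 52.5, 58.0 and 39.9 TPM in WT. KO exceeded the WT littermate in each litter, but the ranges overlapped (log2 change 0.40, SE 0.18, edgeR adjusted p = 0.173).

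No other cathepsin passed in edgeR, while DESeq2 called Ctsc lower and the log2(TPM + 1) fit Ctsb, Ctsc and Ctsl. Ctsl, a broad endopeptidase, had 30.8 to 34.0 TPM in KO and 38.4 to 53.0 TPM in WT libraries, which do not overlap (log2 change -0.34, SE 0.14, edgeR adjusted p = 0.128). Ctsd, the main aspartic protease, had 257 to 373 TPM in KO and 329.2 to 417.5 TPM in WT libraries. Ctsb had 85.3 to 115.4 TPM in KO and 114.9 to 152.4 TPM in WT libraries, which overlap narrowly. Ctsc, which activates the serine proteases of granules, had 56.4 to 91.8 TPM in KO and 88.8 to 117.9 TPM in WT libraries. Ctsa, a carboxypeptidase that protects Glb1 and Neu1, had 114.7 to 177.9 TPM in KO and 168.8 to 202.4 TPM in WT libraries. For each of these 5 the KO library was below its WT littermate in all 4 litters.

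Of the 9 glycosidases, 2 fell. Gaa, the acid alpha-glucosidase that breaks down glycogen, had 43.5 and 46.1 TPM in old KO and 86.5 and 73.3 TPM in young KO libraries, against 83.9 and 92.96 TPM in old WT and 103 and 147.1 TPM in young WT. Old KO libraries were the lowest, and 1 young KO library overlapped with old WT. Gaa fell by 0.66 (SE 0.15, edgeR adjusted p = 0.0285, and 0.0484 with the litter block). Naglu, which removes N-acetylglucosamine from heparan sulfate, had 20.1 and 19.9 TPM in old KO and 31.7 and 31.9 TPM in young KO libraries, against 35.2 and 41.7 TPM in old WT and 40.9 and 52.1 TPM in young WT, with no overlap. It fell by 0.57 (SE 0.15, edgeR adjusted p = 0.0404), a call that the litter block ended (0.0657). The Gaa and Naglu calls held in 9 and 8 of 20 alternatives and were lost without any 1 of 6 libraries, all but the young KO and young WT libraries of litter 3. Without each of those 6 in turn the adjusted p ran from 0.058 to 0.13 for Gaa and from 0.0675 to 0.178 for Naglu. Over the 20 alternatives the log2 change ran from -1.002 to -0.347 for Gaa and from -0.818 to -0.346 for Naglu.

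The other glycosidases missed the threshold in edgeR, and DESeq2 called Manba and Neu1 lower. Neu1, the sialidase, had 16.6 to 26.7 TPM in KO and 27.3 to 30.3 TPM in WT libraries without overlap (log2 change -0.48, SE 0.15, edgeR adjusted p = 0.0603). Manba, the beta-mannosidase, had 15.3 to 25.2 TPM in KO and 23.7 to 43.8 TPM in WT libraries (log2 change -0.54, SE 0.16, edgeR adjusted p = 0.0538). Man2b1, the alpha-mannosidase, had 41.7 to 75.8 TPM in KO and 68.5 to 106.4 TPM in WT libraries. Only Neu1 of these 3 separated the genotypes. Glb1, the beta-galactosidase used as a senescence stain, had 45.5 to 73.3 TPM in KO and 73.3 to 84.9 TPM in WT libraries, which met at their edges. Hexa, a subunit of beta-hexosaminidase, had 87.3 to 125.1 TPM in KO and 120.4 to 144 TPM in WT libraries. Gusb, the beta-glucuronidase often used as a reference gene, was nearly level at 80.1 to 140.8 TPM in KO and 107.7 to 134.2 TPM in WT libraries (log2 change 0.02, SE 0.11). Gla, the X-linked alpha-galactosidase, was scarce, with 3.10 to 5.97 TPM in KO and 3.28 to 4.36 TPM in WT libraries, and its estimate was above 0 (log2 change 0.36, SE 0.19, edgeR adjusted p = 0.245).

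All 7 lipases, peptidase, thioesterase and sulfatases had estimates below 0, and 1 was called. Arsa, which removes sulfate from myelin sulfatide, had 10.02 and 9.54 TPM in old KO and 18.2 and 18.9 TPM in young KO libraries, against 19.7 and 23.3 TPM in old WT and 24.1 and 31.8 TPM in young WT. KO and WT libraries did not overlap. Arsa fell by 0.69 (SE 0.17, edgeR adjusted p = 0.0316). The litter block ended the call (0.0578), as did leaving out any 1 of the same 6 libraries (0.0615 to 0.141), while the log2 change ran from -0.945 to -0.484 over the 20 alternatives. Much of its RNA was assigned to Arsa-201, annotated as a retained intron form, at 6.76 to 13.0 TPM in KO and 13.2 to 20.2 TPM in WT libraries.

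The other 6 of this group missed the threshold in edgeR, and DESeq2 called Arsb, Galns, Lipa and Tpp1 lower. Arsb, which acts on dermatan sulfate, had 9.60 to 20.6 TPM in KO and 17.3 to 36.4 TPM in WT libraries (log2 change -0.45, SE 0.13, edgeR adjusted p = 0.053). Galns, which acts on keratan sulfate, had 10.8 to 16.98 TPM in KO and 18.7 to 24.0 TPM in WT libraries without overlap (log2 change -0.49, SE 0.15, edgeR adjusted p = 0.0572). Lipa, the acid lipase for cholesteryl esters, had 19.6 to 27.0 TPM in KO and 29.3 to 40.3 TPM in WT libraries, again without overlap. Tpp1, the tripeptidyl peptidase, had 36.95 to 64.5 TPM in KO and 63.8 to 92.9 TPM in WT libraries. Ppt1, which strips palmitate from proteins, had 70.1 to 141.3 TPM in KO and 116.7 to 151.8 TPM in WT libraries. Asah1, the acid ceramidase, had 45.4 to 90.0 TPM in KO and 66.7 to 123.1 TPM in WT libraries. Arsb, Tpp1, Ppt1 and Asah1 overlapped between the genotypes.

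Tfeb, the transcription factor of the set, had 15.99 and 15.4 TPM in old KO and 31.8 and 28.5 TPM in young KO libraries, against 27.1 and 24.7 TPM in old WT and 41.2 and 34.1 TPM in young WT. It lay below the WT littermate in every litter, the ranges overlapped, and the log2 change was -0.38 (SE 0.14, edgeR adjusted p = 0.108), while DESeq2 called it lower. The Tfeb core CACGTG lies in 7.15% of the 32851 RefSeq promoters and in those of 10 of the 32 members with a promoter in the table: Lamp1, Mcoln1, Ctsa, Ctsd, Ctsl, Gla, Gaa, Glb1, Naglu and Arsa. CACGTG is its own reverse complement and does not overlap GGAAGT. Windows are printed for Lamp1, whose promoter holds 4 copies, and for the members called lower that have one, with CACGTG in capitals, all GRCm38.p6 from RefSeq: chr8:13159083-13159122 and chr8:13159129-13159168 for Lamp1, chr11:119267806-119267845 for Gaa and chr11:101070004-101070043 for Naglu (plus strand), and chr15:89477418-89477457 for Arsa (minus strand).
Lamp1, first window: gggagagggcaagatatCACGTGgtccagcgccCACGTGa
Lamp1, second window: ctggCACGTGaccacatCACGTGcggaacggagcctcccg
Gaa: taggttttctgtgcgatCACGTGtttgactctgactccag
Naglu: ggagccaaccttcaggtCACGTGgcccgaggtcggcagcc
Arsa: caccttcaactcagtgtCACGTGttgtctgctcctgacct
Of the 10 members with CACGTG, 1 had a KO over WT estimate above 0 and 9 below, with a median log2 change of -0.29. Of the 21 others with a promoter, Cd68 left out, 7 lay above 0 and 14 below, with a median of -0.26. Npc1, Ctsb, Ctsh, Asah1 and Galns had no promoter in the table.

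**Figure D3:**
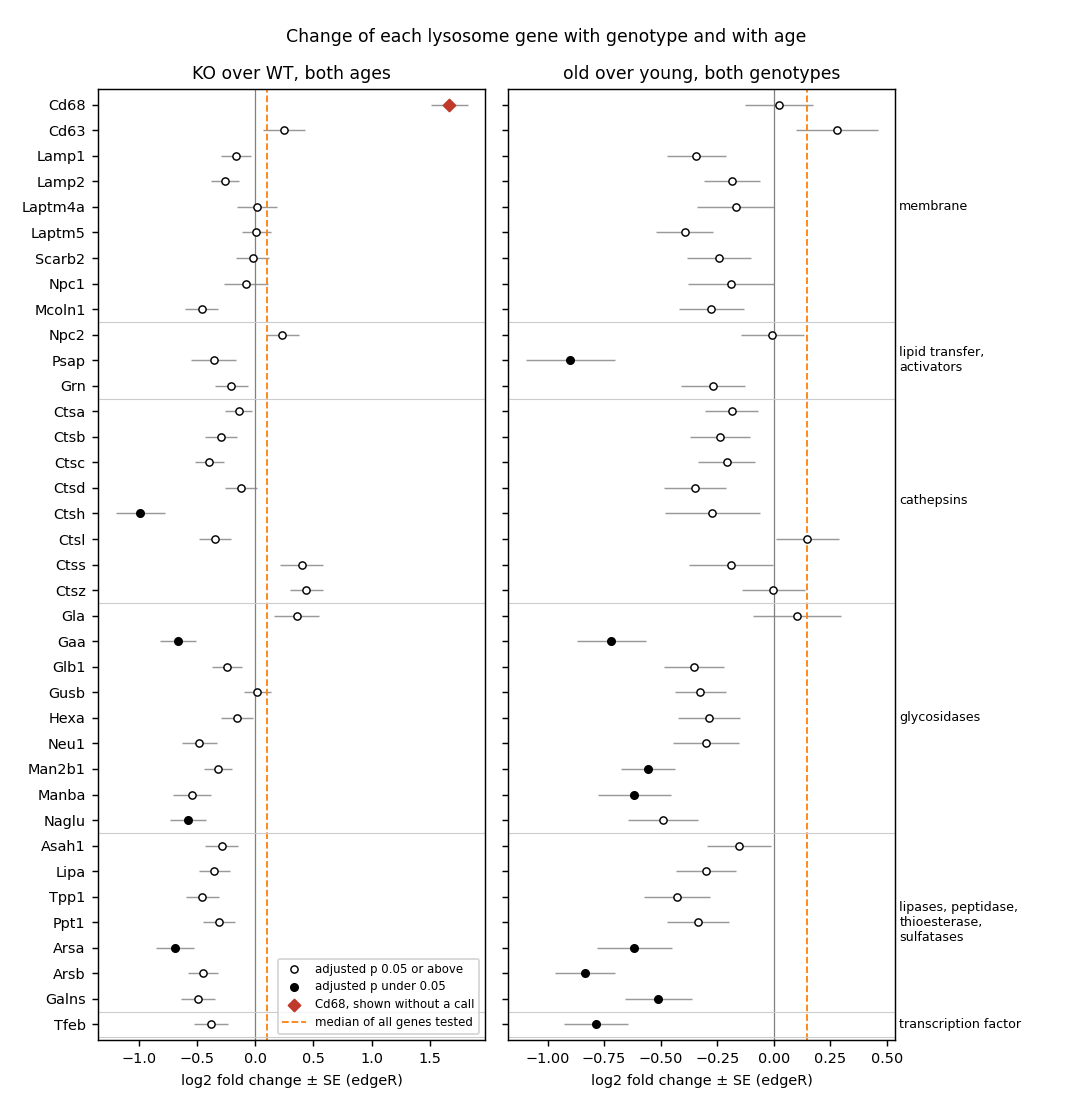
Log2 fold change with its SE (x axis, edgeR) of each lysosome gene for KO over WT over both ages and for old over young over both genotypes, with filled points for an adjusted p under 0.05 and a dashed line at the median of all genes tested. Cd68 (diamond, 1.67) is drawn without a call in the first comparison, on which it was selected, and lies at 0.02 in the second, where 8 other members are called lower.

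Summed over the 36 members without Cd68, old KO libraries had the lowest totals. The sum was 3528 and 3671 TPM in old KO and 4317 and 4602 TPM in young KO libraries, against 4111 and 4909 TPM in old WT and 4705 and 4996 TPM in young WT. The 24 hydrolases alone summed to 1419, 1647, 1894 and 2021 TPM in the KO libraries of litters 1 to 4, against 1949, 2186, 2150 and 2340 TPM in their WT littermates. KO was thus below WT within each litter for both sums, while the genotypes overlapped across litters. By mean level, 13 members stood above Cd68 in KO libraries and 28 in WT libraries.

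A wider list of 97 lysosome and autophagy genes outside the set, of which 95 were tested, held 0 genes called higher and 20 called lower by edgeR in KO over both ages, with a median log2 change of -0.21. Of all genes, edgeR called 3.19% higher and 6.78% lower, the shares to set beside the counts by list below. At an unadjusted p under 0.05 there were 6 higher and 36 lower, where 12.1% of all genes were higher and 17% lower. DESeq2 called 4 higher (Atp6v1f, Cst3, Lamtor1 and Lgmn) and 31 lower, where it called 7.47% of all genes higher and 13.6% lower. Ctsk was below the filter. The hydrolases and cofactors gave 7 of 24 lower, with Ctsf, a cathepsin, falling by 0.98 (SE 0.20, edgeR adjusted p = 0.0211) and Galc, the galactocerebrosidase, by 0.81 (SE 0.19, edgeR adjusted p = 0.0302). Of 17 subunits of the V-ATPase, the proton pump that acidifies the lysosome, 3 fell, among them the membrane subunit Atp6v0a1 by 1.24 (SE 0.24, edgeR adjusted p = 0.0189) and Atp6v0a2 by 0.57 (SE 0.14, edgeR adjusted p = 0.0325). Proteins that sort hydrolases to the lysosome gave 3 of 11, including the mannose 6-phosphate receptor Igf2r, which fell by 1.25 (SE 0.24, edgeR adjusted p = 0.0181), and Sort1, which fell by 0.91 (SE 0.21, edgeR adjusted p = 0.0276). Membrane proteins and transporters gave 3 of 14, led by the chloride exchanger Clcn7, which fell by 0.66 (SE 0.15, edgeR adjusted p = 0.0295), and the channel Tpcn2, by 0.65 (SE 0.16, edgeR adjusted p = 0.0327). Tfeb's relatives and the nutrient sensors gave 3 of 15, including Tfe3 (-0.68, SE 0.15, edgeR adjusted p = 0.0257) and the folliculin gene Flcn (-0.65, SE 0.14, edgeR adjusted p = 0.0246). Autophagy genes gave 1 of 11, Uvrag (-0.48, SE 0.13, edgeR adjusted p = 0.0408), and none of 3 cathepsin inhibitors was called. The count lower was 7 with the litter block, 5 with the length correction and 0 with the covariate for detected genes. Over all genes it was 1732 in the main fit and 784, 647 and 25 in these 3.

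Each age was also compared on its own, with 2 mice against 2. In old mice Cd68 had a log2 change of 1.81 (SE 0.24), KO over WT, and in young mice 1.53 (SE 0.23). Of the 36 other members, none was called in old mice, where 0.204% of all genes were called higher and 0.446% lower, with a median log2 change of -0.36, and none in young mice, where 0.00783% were called higher and 0.0548% lower, with a median of -0.19. The median in old mice was -0.60 without the old WT library of litter 1 and -0.59 without litter 1, and with the covariate for detected genes it was -0.22. The median in young mice was -0.03 without the young KO library of litter 4, -0.12 without the young WT library of litter 3, and -0.04 with the length correction and with the covariate. Ctsh was the lowest in both, at -1.23 (SE 0.30, edgeR adjusted p = 0.0707) in old and -0.74 (SE 0.30, edgeR adjusted p = 0.51) in young mice. At an unadjusted p under 0.05, 1 of the 36 was higher (Ctsz) and 15 lower in old mice, where 9.32% of all genes were higher and 11.8% lower. In young mice 0 were higher and 3 lower (Arsb, Ctsh and Gaa), where 3.21% of all genes were higher and 6.26% lower. DESeq2 called 1 of the 36 higher (Ctsz) and 10 lower in old mice, Ctsh, Gaa, Naglu and Arsa among them, where it called 4.36% of all genes higher and 8.55% lower. In young mice it called none of the 36, where it called 0.294% of all genes higher and 1.2% lower. The difference between the ages was tested as an interaction of genotype with age, which called 0.00391% of all genes and no member. No member reached an unadjusted p under 0.05 there, as 1.98% of all genes did, and DESeq2 called no member and 0.0313% of all genes. For Cd68 the interaction was 0.28 on the log2 scale (edgeR adjusted p = 1), and it turned to -0.04 without litter 1 and to -0.008 on the log2(TPM + 1) scale.

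Old and young libraries were then compared. Cd68 had 100.4, 83.9, 32.5 and 32.0 TPM in the old libraries (2 KO, then 2 WT) and 78.2, 89, 31.0 and 27.3 TPM in the young ones, so that old and young libraries overlapped. Its log2 change, old over young, was 0.02 (SE 0.15, edgeR adjusted p = 0.919), and it turned to -0.41 with the length correction. Over both genotypes edgeR called no member higher and 8 lower in old mice, 21.6% of the set, where 4.34% of all genes were called higher and 9.61% lower. At an unadjusted p under 0.05 there were 0 higher and 17 lower, where 17.8% of all genes were higher and 19.4% lower. DESeq2 called 0 higher and 12 lower, where it called 10.8% of all genes higher and 15.6% lower. Estimates of 3 of the 36 lay above 0 and 33 below, with a median of -0.29 where the median of all genes was 0.15. In TPM the old libraries lay above the young without overlap for no member (4.73% of all genes) and below for 4, Psap, Laptm5, Arsb and Tfeb (1.41% of all genes).

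The members called lower with age were the activator Psap, glycosidases, sulfatases and Tfeb. Psap had 105.2 and 100.3 TPM in old KO and 135.6 and 226.5 TPM in old WT libraries, against 228.4 and 234.8 TPM in the young KO libraries and 233.2 and 310.2 TPM in the young WT ones. All 4 old libraries lay below all 4 young ones, by a narrow margin for the old WT library of litter 2. Psap fell by 0.90 (SE 0.20, edgeR adjusted p = 0.0251). Arsb had 9.60 and 14.3 TPM in old KO and 17.5 and 17.3 TPM in old WT libraries, against 19.3 and 20.6 TPM in the young KO libraries and 25.9 and 36.4 TPM in the young WT ones, again with no overlap. It fell by 0.83 (SE 0.13, edgeR adjusted p = 0.0149). Tfeb, at 20.8 ± 5.96 TPM in old and 33.9 ± 5.40 TPM in young libraries (SD, n = 4 each), fell by 0.79 (SE 0.14, edgeR adjusted p = 0.0204), also without overlap.

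Gaa fell by 0.72 with age (SE 0.15, edgeR adjusted p = 0.0242), to 66.6 ± 25.5 TPM in old against 102 ± 32.1 TPM in young libraries (SD, n = 4 each). Man2b1 fell by 0.56 (SE 0.12, edgeR adjusted p = 0.0246) and Manba by 0.62 (SE 0.16, edgeR adjusted p = 0.0347). The sulfatases Arsa and Galns fell by 0.62 (SE 0.17, edgeR adjusted p = 0.037) and 0.51 (SE 0.15, edgeR adjusted p = 0.0443). Gaa and Arsa were thus called lower both in KO and in old mice, 2 comparisons made on the same 8 libraries. The age calls depended on single libraries. None of the 8 was left without the old KO library of litter 1, without either the young KO library of litter 3 or the young WT library of litter 4, or without litter 1, and 13 members were called without the old WT library of litter 2. Arsb alone was called without the old KO library of litter 2 or the old WT library of litter 1, and 4 members (Arsb, Gaa, Psap and Tfeb) without the young KO library of litter 4. Arsb held in 12 of 19 alternative fits, Psap and Gaa in 9, Tfeb in 8, and Galns in 5. On the log2(TPM + 1) scale no member was called with age. The LSK markers summed to 1585 to 2371 TPM in old and 2024 to 3127 TPM in young libraries, and the part of cell makeup in these changes was not tested.

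Of the 95 wider lysosome genes tested, edgeR called none higher and 23 lower in old mice, with a median log2 change of -0.28. Of all genes, edgeR called 4.34% higher and 9.61% lower, the shares to set beside the counts by list below. At an unadjusted p under 0.05 there were 0 higher and 39 lower, where 17.8% of all genes were higher and 19.4% lower. DESeq2 called 0 higher and 35 lower, where it called 10.8% of all genes higher and 15.6% lower. Those that sort hydrolases gave 7 of 11, including Igf2r, which fell by 1.00 (SE 0.24, edgeR adjusted p = 0.0295), and Sort1, which fell by 0.78 (SE 0.21, edgeR adjusted p = 0.0363). Hydrolases gave 6 of 24, led by Sgsh (-0.87, SE 0.22, edgeR adjusted p = 0.0331) and Ids (-0.73, SE 0.21, edgeR adjusted p = 0.0446), both of the heparan sulfate pathway. The V-ATPase, the nutrient sensors and the autophagy genes gave 3 each, among them Atp6v0a2 (-0.79, SE 0.14, edgeR adjusted p = 0.0198), Rptor (-0.79, SE 0.19, edgeR adjusted p = 0.0305) and Ulk1 (-0.83, SE 0.21, edgeR adjusted p = 0.0324). With the covariate for detected genes none was called, and of all genes 20 were called higher and 4 lower.

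Transcript length moved with both comparisons. Over 9831 protein-coding genes above 5 TPM, Spearman's rho between effective length and log2 change was -0.63 for KO over WT and -0.65 for old over young, across genes that share the same libraries. Over the 36 members it was -0.22 and -0.34. The members are longer than the average gene tested, with a median effective length of 2134 bases against 1697, whereas Cd68 is short at 845 bases. Among the 5 members under 1300 bases, Cd63 had a log2 change of 0.25, Ctss 0.40, Ctsz 0.44, Ctsh -0.98 and Cd68 1.67, KO over WT. With a correction for length in each library the Cd68 value was 1.30, the Ctsh value -1.28 (edgeR adjusted p = 0.0073), and the values of Gaa, Naglu and Arsa lay between -0.62 and -0.54 with adjusted p of 0.0822 to 0.093. With the number of detected genes as a covariate the Cd68 value was 1.73 and no other member was called with genotype or with age. The part of transcript length in these changes was not tested beyond this correction.

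**Figure D4:**
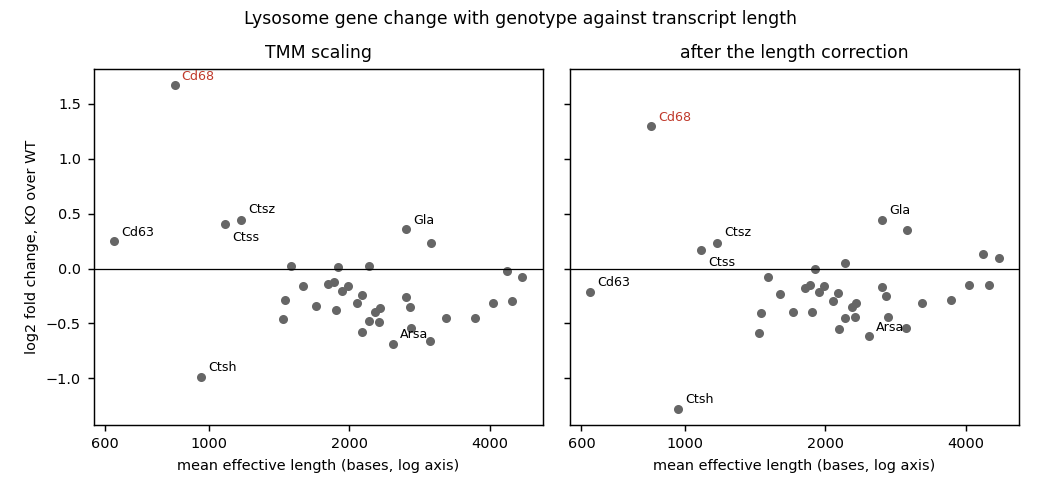
Log2 fold change, KO over WT over both ages (y axis), of each lysosome gene against its mean effective length in bases (x axis, log scale), with TMM scaling and after the length correction. Cd68 stays the highest point in both (1.67 and 1.30) and Ctsh the lowest (-0.98 and -1.28).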

How the data were processed

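The deposited tables give kallisto's estimated counts, TPM and effective length in bases for each of 115088 transcripts, per the file headers. The submitters' processing notes name kallisto, DESeq2 and mm10, and no version is given in the sources used here. SMART-Seq v4 libraries were made from polyA RNA, per the labels' protocols. Transcripts were matched by identifier to GENCODE vM21 (114200 matched, and the 888 left out held 0.259% to 0.47% of a library's counts). For the count models the deposited estimated counts were added up by gene, then rounded. The authors' TPM, added up the same way, serve as levels. The kit does not mark strand, and 17 members overlap another gene, whose reads may be shared in part.

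Genes were kept by filterByExpr (minimum count 10, minimum total 15), which left 25543, scaled by TMM and tested in R 4.3.3 by the quasi-likelihood F test of edgeR 4.0.16 (Benjamini-Hochberg over 25543 genes, threshold 0.05). Effects over both ages or genotypes came from a model of batch, age and genotype with 4 residual degrees of freedom, and effects within an age and the interaction from one of 4 groups and batch with 3. Alternatives used limma 3.58.1, DESeq2 1.42.0, a loess (span 0.3) of log ratios on length, and the number of detected genes as a covariate. Tables and figures were made with pandas 2.3.3 and matplotlib 3.10.9 under Python 3.11.15.

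Labels pair littermates. Their deviations from group means correlated at 0.06 in old and 0.12 in young litters, which with 2 mice per group is 1 value per age, so a litter block was an alternative. Counting error is small at this depth: between the mice of a group, chi-square per degree of freedom ran from 85.6 to 263.9. Each library is from a separate mouse, per the labels.

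Fold changes and SE are given for Cd68, for members past the threshold and for members near it or with libraries that do not overlap, the last named after their values were seen. Up to 2 wider-list genes per list and direction are named. The members and the lists were chosen with earlier results of these data known.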

Additional observations from a re-analysis of the deposited data

How the results depend on the processing

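Cd68, selected on KO over WT, kept that direction in all fits run, which is a description and no test. Leaving out libraries could hardly reverse it, since every KO library lay above every WT library. Counts of members called in KO leave Cd68 out. Of all genes, 1732 were called lower in KO over both ages, and this count moved with the setting. It was 1988 with edgeR on DESeq2 size factors, 3472 with DESeq2, 2591 (of 42298) without the filter and 330 without the batch term. It was 784 with the litter block, 647 with the length correction, 25 with the covariate, and 1743 and 1954 on the log2(TPM) scales. Members called lower in KO over both ages (4) became 7 with edgeR on DESeq2 size factors, 13 with DESeq2, 7 without the filter, 0 without the batch term, 2 with the replicate block for litter, 0 in batch 1 and 10 in batch 2 alone, 0 without litter 1, 1 with the length correction, 0 with the covariate for detected genes and 14 on either log2(TPM) scale (pseudocounts 1 and 0.1). Without 1 library each they ran from 0 to 10. Members other than Cd68 called higher (0) became 1 with DESeq2 and without the filter, and ran from 0 to 2 without 1 library each. In old mice, members higher (0) became 1 with DESeq2. Members lower in old mice (0) became 10 with DESeq2, 6 without the filter, 1 with the length correction, 14 on log2(TPM + 1) and 10 on log2(TPM + 0.1), and ran from 0 to 13 without 1 library each. All genes called lower there moved too: 114 became 2184 with DESeq2, 1609 without the filter, 574 with the length correction, 1130 and 1003 on the log2(TPM) scales, and 1 to 2537 without 1 library each. In young mice no fit called any of the 36.

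Members lower in old than young mice (8) became 1 without batch, 4 in batch 1 and 3 in batch 2 alone, and 0 without litter 1, with the covariate and on both log2(TPM) scales. Without 1 library each they ran from 0 to 13. All genes called lower with age moved too: 2454 became 101 without batch, 4 with the covariate, and 6 and 11 on the log2(TPM) scales. Cd68's change with age (0.02) was -0.016 without the filter, -0.017 in batch 2, -0.019 without litter 1 and -0.41 with the length correction (-0.108 to 0.119 without 1 library each). Its interaction was -0.045 without litter 1, -0.008 and -0.011 on the log2(TPM) scales with pseudocounts 1 and 0.1, and -0.028 to 0.508 without 1 library each. The litter block ended the calls of Naglu and Arsa and of no other member named for KO over both ages. The causes were not tested.

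With 2 mice per group, single libraries decide most calls of members, and Cd68 in KO against WT was described without a call. Litter, batch and mouse cannot be told apart within a group.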
